A study of Zea mays with 24 samples.

Results

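The comparison described here is that of dct2-1 with wild type at the base of maize leaf 2, in the segment labelled -4. Its members were the 6 libraries labelled with that segment, 3 of dct2-1 and 3 of wild type, out of 24 in the series, which holds 8 groups over 4 leaf segments. Both genotypes were of strain W22, aged 9 days, and each library was made from total RNA of leaf pooled from 15 plants, grown at 28 °C and 40% humidity under 16-h days, with the chamber lamps supplying 500 umol per square metre each second. Positions were counted from the ligule, and the submitters describe -4 as lying at the base of the blade, in tissue not yet active in photosynthesis.

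The authors' deposited table for the segment lists 39634 genes with 1 FPKM value (a fragment count scaled by transcript length and library size) for each of 2 groups, named only q1 and q2, so no value per library, no spread between libraries and no depth could be given. No header or label says which of them is dct2-1. The mutated gene, pDCT2 (GRMZM2G086258, chromosome 1, positions 181868559 to 181880941 on a genome build that the sources do not name), had 7.84 FPKM in q2 and 37.8 FPKM in q1, a log2 ratio of -2.27. The group low in pDCT2 is q2, and the column was recognised by that value, so the ratio is a description and no test of the mutation. If q2 is dct2-1, each direction below reads as dct2-1 relative to wild type.

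In maize, a C4 grass, carbon dioxide is first fixed in mesophyll cells, and the resulting acids are passed to bundle sheath cells, where Rubisco refixes the carbon. pDCT2 is a dicarboxylate transporter of the bundle sheath plastid envelope. A grass leaf grows from its base, so the segments form a gradient that runs from young dividing and expanding cells, which import sugar, to mature cells that export it.

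The study's question at each segment was which transcripts differ when the transporter is lost. Of the listed genes 20174 were tested by the authors, and 5629 of them, 27.9%, had an adjusted p under 0.05 in the authors' deposited table and are referred to as called. Of those, 3062 were higher in q2 (15.2% of the tested genes) and 2567 were lower (12.7%). Changes of at least 2-fold, found for 1406 genes (6.97%), leaned more to one side, with 1051 genes higher (5.21%) and 355 lower (1.76%), and changes of at least 4-fold were found for 249 genes higher and 42 lower. The median log2 ratio of q2 over q1 was 0.02 over all tested genes, with quartiles of -0.26 and 0.33. The median standard error of a log2 ratio, obtained from the authors' test statistic and given below as ± SE, was 0.299. The authors' adjusted p cannot be read off this SE: sus1 was called with a Cuffdiff test statistic of only -1.57 (adjusted p 0.0389 in the authors' deposited table). In the authors' deposited table the smallest adjusted p is 0.000492, shared by 2052 genes. It applies to each gene given below with its own FPKM values or log2 ratio as having risen or fallen, unless another adjusted p stands beside it. In counts over a list, rose and fell mean an adjusted p under 0.05. The samples came from leaf segments, so fewer cells of a type and less RNA per cell cannot be told apart.

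The direction of the calls differed with expression level. Among the 186 genes with a mean under 1 FPKM, 26.9% were called higher in q2 and 9.14% lower. Among the 8181 genes with a mean of 1 to 10 FPKM, 15.4% were called higher in q2 and 9.13% lower. In the largest class, the 10530 genes between 10 and 100 FPKM, the shares were close, with 14.6% higher and 13.8% lower. Among the 1236 genes between 100 and 1000 FPKM the order was the other way, with 17.2% higher and 27.3% lower, and among the 41 genes at 1000 FPKM or more 14.6% were higher and 34.1% lower. From the lowest class to the highest, the median log2 ratio was 1.36, 0.09, -0.002, -0.14 and -0.15. The genes called higher had median levels of 16.0 FPKM in q2 and 8.75 FPKM in q1, and those called lower 15.6 FPKM in q2 and 24.6 FPKM in q1.

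**Figure D1:**
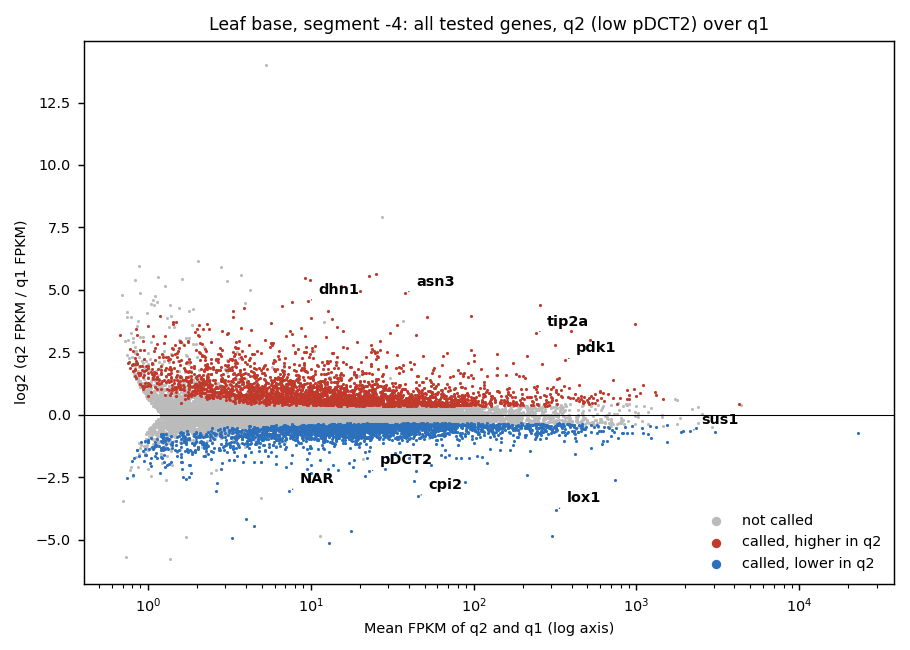
Each point is 1 tested gene with a value above 0 in both groups. The x axis gives the mean FPKM of q2 and q1 on a log scale and the y axis the log2 ratio of q2 over q1, with genes called higher in q2 in red, called lower in blue and not called in grey. More red than blue points lie beyond a log2 ratio of 1 or -1, 1051 against 355.

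The largest rises among named genes (called, with at least 10 FPKM in the higher group) were those of asn3, dhn1 and pip2f. asn3, an asparagine synthetase, had 73.7 FPKM in q2 and 2.51 FPKM in q1, a log2 ratio of 4.87 ± 0.34 (SE). dhn1, a dehydrin made in drying tissue, had 18.4 FPKM in q2 and 0.789 FPKM in q1. The tonoplast aquaporin tip2a rose to 440.1 FPKM in q2, against 45.4 FPKM in q1, and was the most abundant of the 12 in q2. Natterin-4, named after a fish toxin, stood at 40.9 FPKM in q2 and 5.90 FPKM in q1, and the phytosulfokine precursor gene PSK3, which encodes a growth peptide, at 16.8 FPKM in q2 and 3.13 FPKM in q1. The others of the 12 were 3 stress genes (Hsf05, hsp18c and hsp18), the aquaporins pip2f and pip2c, the Rubisco activase gene rca3 and the wall enzyme gene xth1, with log2 ratios of 2.36 to 3.84.

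Among the 12 largest falls the first was lox1, a lipoxygenase, with 42.9 FPKM in q2 and 598 FPKM in q1, a log2 ratio of -3.80 ± 0.34 (SE). cpi2, a cysteine proteinase inhibitor, had 8.52 FPKM in q2 and 82.1 FPKM in q1. eks1, named for ent-kaurene synthase of gibberellin synthesis, had 3.45 FPKM in q2 and 15.5 FPKM in q1, and the thiamine synthesis gene thi2 had 3.34 FPKM in q2 and 16.7 FPKM in q1. pdc3, a pyruvate decarboxylase of fermentation, had 44.8 FPKM in q1 and a log2 ratio of -1.68 ± 0.25 (SE). The fall of pDCT2 ranked sixth among these 12. chiA, a chitinase by name, was listed at 0 in q1 and had 3.10 FPKM in q2. In each direction, genes without a usable name changed more than these. GRMZM2G331701 had 49.2 FPKM in q2 and 0.981 FPKM in q1, and GRMZM2G700208 had 20.1 FPKM in q2 and 588 FPKM in q1.

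**Figure D2:**
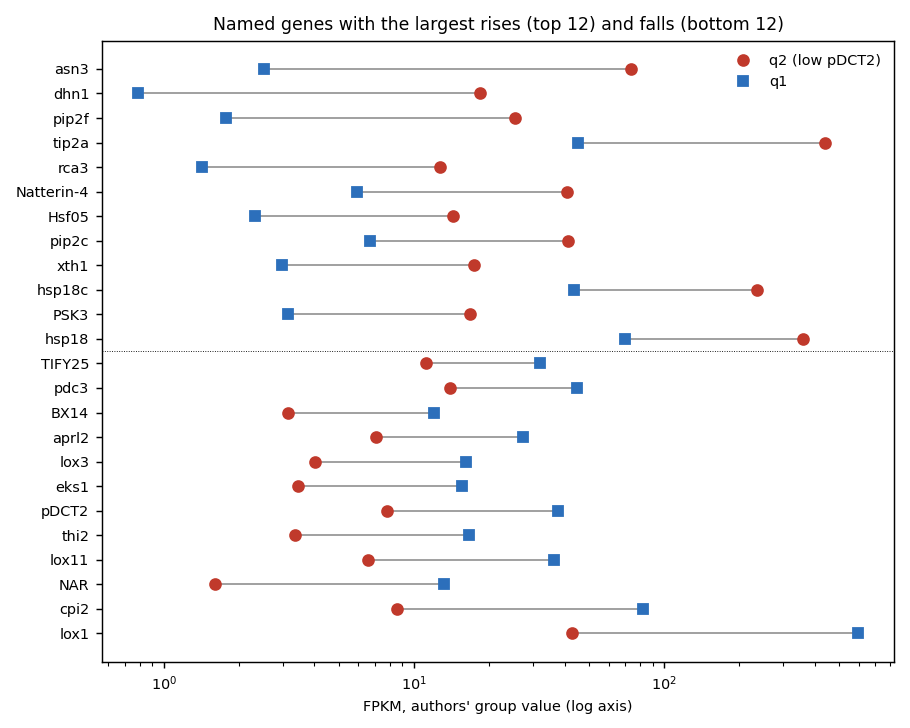
FPKM of q2 (red circles) and q1 (blue squares) on a log axis for the named genes with the 12 largest rises, above the dotted line, and the 12 largest falls, below it. Each point is the authors' single value for a group, so no error bar can be drawn. asn3 lies at 73.7 FPKM in q2 and 2.51 FPKM in q1, and lox1 at 42.9 FPKM in q2 and 598 FPKM in q1.

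Calls among genes of sugar breakdown were nearly all lower in q2. Of 23 tested genes of glycolysis and fermentation, 13 fell and 1 rose, with a median log2 ratio of -0.45 against 0.02 over all tested genes. The enolase gene eno2, of the step that makes phosphoenolpyruvate, had 287 FPKM in q2 and 548 FPKM in q1, a log2 ratio of -0.93 ± 0.42 (SE), with an adjusted p of 0.0048 in the authors' deposited table. eno1 had 130.1 FPKM in q2 and 239 FPKM in q1, and another gene, named enolase, had 13.1 FPKM in q2 and 25.2 FPKM in q1. The glyceraldehyde phosphate dehydrogenase gene GAPC had 624 FPKM in q2 and 1027 FPKM in q1 (adjusted p 0.00196 in the authors' deposited table). The fermentation genes adh1, an alcohol dehydrogenase, and LDH, a lactate dehydrogenase, also fell, with log2 ratios of -0.73 ± 0.25 and -0.66 ± 0.27. pdc2 moved against pdc3 and rose to 11.1 FPKM in q2, against 4.74 FPKM in q1. The genes named for pyruvate kinase (PK, pk3 and pk4), of the last step of the path, were not called and had log2 ratios of -0.12 to 0.09.

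Of 15 tested genes of starch synthesis, 7 fell and none rose, with a median log2 ratio of -0.23. AGP2, for ADP-glucose pyrophosphorylase, which commits sugar to starch, had 47.8 FPKM in q2 and 112 FPKM in q1, a log2 ratio of -1.23 ± 0.25 (SE). The starch phosphorylase gene pho1 had 8.33 FPKM in q2 and 19.6 FPKM in q1. AGPLS3 had a log2 ratio of -0.64 and the branching enzyme gene sbe3 one of -0.53, with adjusted p of 0.00127 and 0.00259 in the authors' deposited table.

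Of 12 tested genes of sucrose use and transport 4 rose and 3 fell, and the median log2 ratio of -0.02 turned positive when the groups were rescaled to equal FPKM sums. Among genes of sucrose-cleaving enzymes, the invertase genes ivr2 and mn1 and the sucrose synthase gene sus2 rose, and the sucrose synthase genes sus1 and sh1 fell. ivr2, a vacuolar invertase, had 238 FPKM in q2 and 80.0 FPKM in q1, a log2 ratio of 1.57 ± 0.28 (SE), and mn1, a cell wall invertase, had 3.21 FPKM in q2 and 1.32 FPKM in q1. sus1, among the 6 most abundant named genes in q1, had 1657 FPKM in q2 and 2624 FPKM in q1 (adjusted p 0.0389 in the authors' deposited table), and sh1 had 87.8 FPKM in q2 and 139 FPKM in q1. sus2 was low in both groups and rose to 4.31 FPKM in q2, against 0.342 FPKM in q1. The fructokinase gene frk2 fell to 706 FPKM in q2, against 1166 FPKM in q1, with an adjusted p of 0.00196 in the authors' deposited table.

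**Figure D3:**
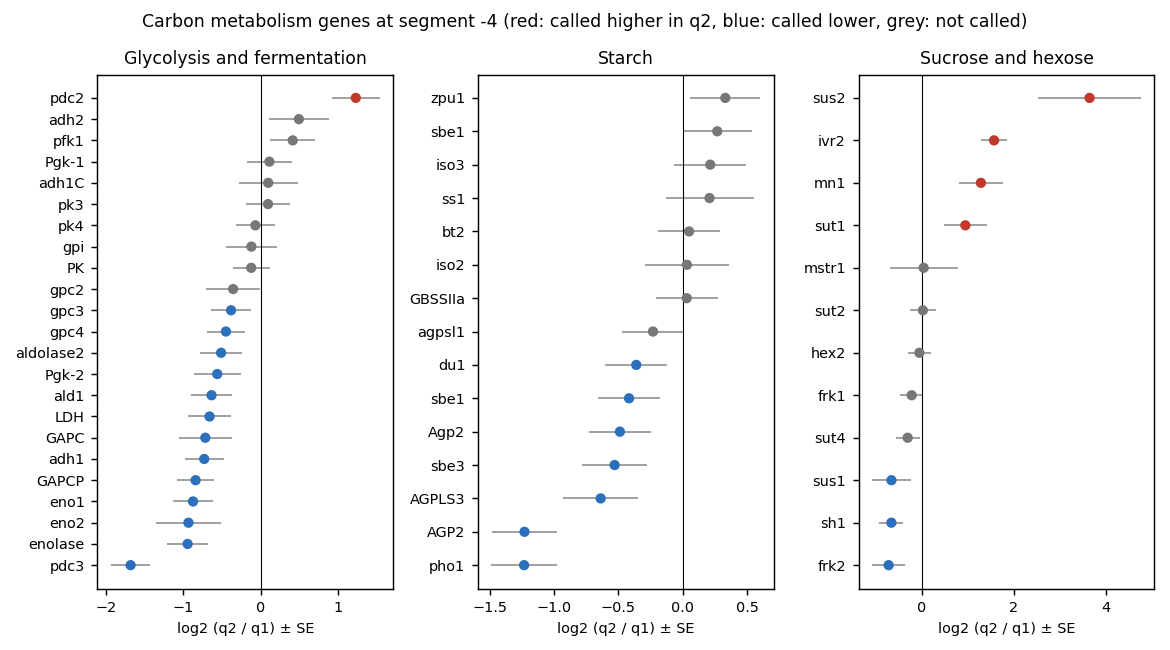
Points are log2 ratios of q2 over q1 for each tested gene of glycolysis and fermentation, starch synthesis, and sucrose use and transport, and bars are 1 SE either side, from the authors' test statistic. Red points were called higher in q2, blue points lower and grey points not called, 1, 0 and 4 red and 13, 7 and 3 blue points in the 3 panels.

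Nitrogen genes went both ways. Of 15 tested genes, 6 rose and 4 fell (median log2 ratio 0.19). Of the nitrate reductase genes, NAR had 1.60 FPKM in q2 and 13.1 FPKM in q1, and NNR1 had 6.75 FPKM in q2 and 17.0 FPKM in q1. NIR, of the next step, nitrite reduction, had 20.1 FPKM in q2 and 13.7 FPKM in q1, with an adjusted p of 0.0367 in the authors' deposited table. Glutamine synthetase genes went both ways, since gln1 had 116 FPKM in q2 and 77.2 FPKM in q1 (adjusted p 0.000899 in the authors' deposited table) while gln5 had 143 FPKM in q2 and 269 FPKM in q1. fgs1, for ferredoxin-dependent glutamate synthase, had 53.3 FPKM in q2 and 34.0 FPKM in q1. Of the asparagine synthetase genes asn3 rose, as given above, and asn2 fell to 0.779 FPKM in q2, against 1.62 FPKM in q1 (adjusted p 0.017 in the authors' deposited table).

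Photosynthesis genes were mostly higher in q2 in a segment described as inactive in photosynthesis. Of 9 tested C4 cycle genes 6 rose and pDCT2, by whose level q2 was recognised, fell. Of 12 light-harvesting and thylakoid genes 8 rose and 1 fell, and of 7 Rubisco and Calvin-Benson genes 6 rose. The medians of these lists were 0.53, 0.57 and 0.94. Genes removed with values in view, because of their symbols, were AAMT1, PDK1, pdlk1 and Pep1 from the C4 list. From the Rubisco list hsbp1 and sbp1 were removed. None of the removed genes was called, so the removals raised the shares of both lists. The single member of the light-harvesting and thylakoid list that fell was psat1, with 63.2 FPKM in q2 and 115 FPKM in q1. It was placed there by its symbol only, and a thylakoid role was not checked. The mesophyll markers pep1, mdh6, pdrp1 and pdk1 were all called higher and summed to 839 FPKM in q2 and 252 FPKM in q1. Of 6 bundle sheath markers 5 were called higher and pDCT2 lower, and their sum was 1589 FPKM in q2 and 762 FPKM in q1. The meristem marker kn1 was not tested, and was listed at 0 in q2 and at 0.0553 FPKM in q1. Of 6 epidermis markers 2 were called higher, and their sum was 379 FPKM in q2 and 304.5 FPKM in q1. Of the vasculature markers sut1 was called higher and sut2 was not. The part of cell type proportions in the other results was not tested.

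Of 42 tested genes of plastid gene expression and protein targeting 3 rose and 8 fell, with a median log2 ratio of -0.14, and their share called, 26.2%, was near that over all tested genes. psa6, a member of the list by its symbol only, had 539 FPKM in q2 and 334 FPKM in q1. The sigma factor gene sig6, whose protein directs the plastid RNA polymerase, had 60.7 FPKM in q2 and 37.6 FPKM in q1. WTF1, for a plastid intron splicing protein, had 22.1 FPKM in q2 and 34.6 FPKM in q1. Of 57 genes listed on the plastid genome 11 were tested and 4 were called higher, a share of 36.4% against 27.9% over all tested genes. All 11 had a log2 ratio above 0 (median 1.25). A gene low in q1 may have entered the tested set through its level in q2, so this shared direction is only a description. Levels were low: the 11 summed to 105 FPKM in q2 and 42.4 FPKM in q1. The 46 not tested reached at most 0.609 FPKM in q2 and 0.663 FPKM in q1. Of 124 genes listed on the mitochondrial genome 9 were tested and 1 fell (median 0.30). None of 3 tested chlorophyll synthesis genes was called, and the abundant pcr1, for protochlorophyllide reductase, had 1237 FPKM in q2 and 1684 FPKM in q1. Of 18 tested carotenoid and isoprenoid genes 4 rose and none fell, while their median was -0.04 and turned positive under rescaling. The carotene hydroxylase gene BCH2 had 10.6 FPKM in q2 and 4.15 FPKM in q1, a log2 ratio of 1.36 ± 0.42 (SE).

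Genes of dividing cells were lower in q2. Of 51 tested genes of DNA replication, the cell cycle and histones 34 fell and 1 rose (median -0.61). kin1, a kinesin motor gene, had 36.7 FPKM in q2 and 97.5 FPKM in q1. A histone H4 gene named H4C13 had 2307 FPKM in q2 and 3767 FPKM in q1 and led all named genes in q1. H4C13 names several loci with near-identical copies, whose reads the counting could have split. The single gene of the list that rose was kin15, with 18.1 FPKM in q2 and 12.2 FPKM in q1 (adjusted p 0.000899 in the authors' deposited table).

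Of 69 tested chromatin genes 21 fell and 2 rose (median -0.23), a share called of 33.3% against 27.9% over all tested genes. Among the 69, 13 fell and none rose at an adjusted p under 0.01 in the authors' deposited table. The list was among those added after names and some values had been seen. met2, for a DNA methyltransferase, had 42.9 FPKM in q2 and 83.5 FPKM in q1, a log2 ratio of -0.96 ± 0.25 (SE). nfd106, for a high mobility group protein, had 177 FPKM in q2 and 314 FPKM in q1, and the histone acetyltransferase gene hat1 had 13.2 FPKM in q2 and 22.9 FPKM in q1. The 2 that rose were mbd111 and CAF1, with log2 ratios of 0.36 and 0.46 and adjusted p of 0.0406 and 0.0416 in the authors' deposited table.

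Of 35 tested ribosomal protein genes 14 fell and none rose (median -0.33), and the largest fall was that of arpp1a, with 337 FPKM in q2 and 543 FPKM in q1. Growth-regulating factors, which keep leaf cells dividing, and their partners had 4 falls and no rise among 17 tested genes (median -0.23). Their share called, 23.5%, was below the 27.9% over all tested genes. The coactivator gene GIF1 had 9.43 FPKM in q2 and 19.4 FPKM in q1, and GRF3 had 7.15 FPKM in q2 and 12.7 FPKM in q1. Of 17 tested genes of tubulins, actins and profilins 4 fell and 2 rose, and TUB1 had 133 FPKM in q2 and 244 FPKM in q1. Of 14 tested genes of ROP GTPases and cell shape 3 fell and none rose, a share called below that over all tested genes. They included tan1, which places the division plane, with 3.65 FPKM in q2 and 6.90 FPKM in q1 (adjusted p 0.000899 in the authors' deposited table), and pan1, which polarises the divisions that form stomata, with a log2 ratio of -0.51 (adjusted p 0.00196 in the authors' deposited table).

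Calls among wall, aquaporin and potassium transport genes were mostly higher in q2. Of 24 tested wall genes 13 rose and 2 fell (median 0.45). The xyloglucan-modifying xth1 had 17.4 FPKM in q2 and 2.96 FPKM in q1, and bk2, of the COBRA family that organises cellulose, had 2.57 FPKM in q2 and 0.463 FPKM in q1. Of 16 tested aquaporin genes 10 rose and none fell (median 0.84). Of 7 proton pump genes 2 rose and none fell, a share near that over all tested genes (median -0.04), among them vpp1, the vacuolar pyrophosphatase, with 37.1 FPKM in q2 and 9.65 FPKM in q1, a log2 ratio of 1.94 ± 0.26 (SE). Of 18 tested potassium transport genes 8 rose and 1 fell (median 0.40). The transporter gene HAK10 had 4.74 FPKM in q2 and 1.92 FPKM in q1, and the channel gene kch5 had 5.35 FPKM in q2 and 2.50 FPKM in q1. Of 10 tested lignin genes 3 rose and none fell, a share near that over all tested genes (median 0.35). The largest rise was that of the laccase gene LAC1, with 4.28 FPKM in q2 and 0.575 FPKM in q1.

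**Figure D4:**
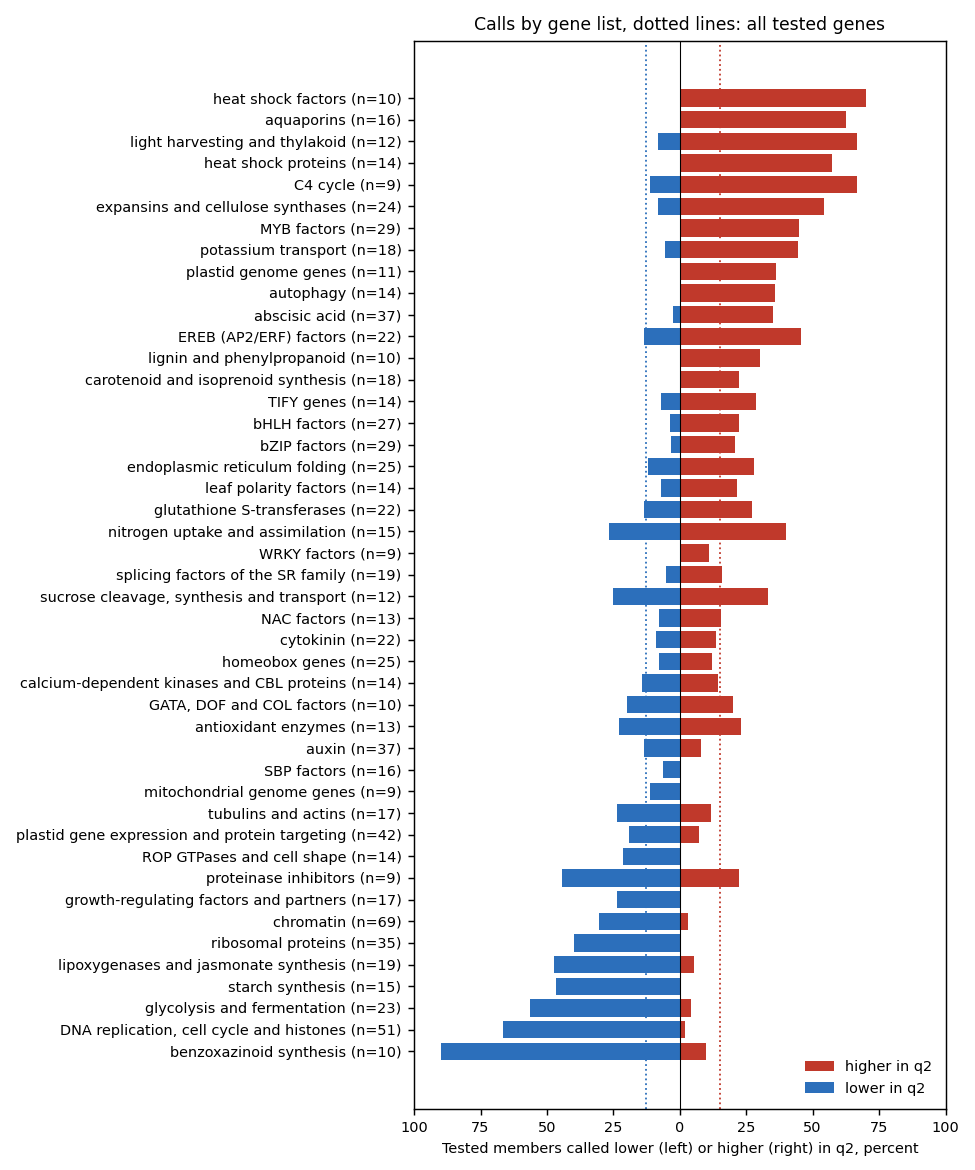
Bars give the percentage of each gene list's tested members called higher (red, right) or lower (blue, left) in q2, for lists with at least 9 tested members, and the dotted lines give the shares over all tested genes, 15.2% higher and 12.7% lower. Heat shock factors (7 of 10 higher) stand at the top and benzoxazinoid genes (9 of 10 lower) at the bottom.

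Calls among heat shock genes were all higher in q2. Of 14 tested heat shock protein genes 8 rose and none fell (median 0.81), and of 10 heat shock factor genes 7 rose and none fell (median 0.54). The heat shock protein genes most abundant in q2, hsp70-4 and hsp22, were not called. hsp70-4 had 2367 FPKM in q2 and 2022 FPKM in q1 (adjusted p 0.683 in the authors' deposited table). hsp22 had 2129 FPKM in q2 and 1413 FPKM in q1 (adjusted p 0.0545 in the authors' deposited table). Folding genes of the endoplasmic reticulum were divided, with 7 of 25 higher and 3 lower (median -0.05). The chaperone genes bip1 and bip2 rose, bip1 with 458 FPKM in q2 and 229.5 FPKM in q1, while the disulfide isomerase gene pdi3 fell to 15.5 FPKM in q2, against 22.9 FPKM in q1 (adjusted p 0.00162 in the authors' deposited table). Of 14 tested autophagy genes 5 rose and none fell (median 0.20), a share called of 35.7% against 27.9% over all tested genes. No autophagy gene was called at an adjusted p under 0.01 in the authors' deposited table. Those that rose included Atg8a, for a protein that coats the forming autophagosome, with a log2 ratio of 0.76 (adjusted p 0.0133 in the authors' deposited table). Of 6 genes of raffinose metabolism 2 rose (median 0.55), and the galactinol synthase gene gols2 had 13.6 FPKM in q2 and 3.41 FPKM in q1. Of 3 tested dehydrin and late embryogenesis genes dhn1 alone was called (median 0.15). Of 13 antioxidant enzyme genes 3 rose and 3 fell (median 0.14), and of 22 glutathione S-transferase genes 6 rose and 3 fell (median 0.09). gst2 had 125 FPKM in q2 and 36.0 FPKM in q1.

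Of 10 tested genes of benzoxazinoids, which are defence compounds of maize, 9 fell and 1 rose (median -0.96). The gene that rose, glu2, for a glucosidase, had 173 FPKM in q2 and 48.6 FPKM in q1. Of 19 tested lipoxygenase and jasmonate synthesis genes 9 fell and lox12 rose (median -0.42), with lox12 at 8.91 FPKM in q2 and 3.23 FPKM in q1. Of 14 TIFY genes, which include repressors of the jasmonate response, 4 rose and 1 fell (median 0.12). Of 9 proteinase inhibitor genes 2 rose and 4 fell (median -0.23), and sci1, for a subtilisin-chymotrypsin inhibitor, had 146 FPKM in q2 and 52.7 FPKM in q1.

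Of 37 tested genes of abscisic acid, the hormone of water deficit, 13 rose and 1 fell (median 0.10). The list held genes for receptors (PYL) and for the PP2C phosphatases that they inhibit, and 23 of its members were not called. PP2C13 had 2.80 FPKM in q2 and 0.363 FPKM in q1, and PYL5 had 1.39 FPKM in q2 and 0.238 FPKM in q1, a log2 ratio of 2.54 ± 1.21 (SE, adjusted p 0.038 in the authors' deposited table). Of 7 gibberellin genes 2 rose and 2 fell, and their median of -0.02 turned positive under rescaling. Next to the fall of eks1, Dwarf1, of the step that makes active gibberellin, rose to 10.0 FPKM in q2, against 4.30 FPKM in q1. Of 37 auxin genes 3 rose and 5 fell (median -0.09), of 22 cytokinin genes 3 rose and 2 fell (median 0.10), and of 5 ethylene genes 2 rose and 1 fell (median 0.21). The cytokinin oxidase gene CKX12 had 0.720 FPKM in q2 and 2.92 FPKM in q1, and AUX10 had 11.7 FPKM in q2 and 5.85 FPKM in q1. None of 3 brassinosteroid genes was called (median -0.15).

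In some transcription factor families nearly all calls were in 1 direction. Of 29 tested MYB genes 13 rose and none fell (median 0.41). MYB61 had 14.3 FPKM in q2 and 3.92 FPKM in q1, a log2 ratio of 1.87 ± 0.39 (SE). Of 22 EREB genes 10 rose and 3 fell (median 0.40), and dbf1, for a factor that binds drought-responsive elements, had 22.6 FPKM in q2 and 8.17 FPKM in q1. Of 27 bHLH genes 6 rose and 1 fell (median 0.26), and of 29 bZIP genes 6 rose and 1 fell (median 0.11). bHLH11 had 7.59 FPKM in q2 and 2.05 FPKM in q1, and bZip112 had 9.42 FPKM in q2 and 2.70 FPKM in q1. Of 13 NAC genes 2 rose and 1 fell (median 0.31), and both that rose carry the name NAC1, with log2 ratios of 1.98 and 2.03. The shares called among bHLH, bZIP and NAC genes were 25.9%, 24.1% and 23.1%, below the 27.9% over all tested genes. Of 6 golden2-like genes 2 rose (median 0.17), and GLK44 had 9.47 FPKM in q2 and 2.24 FPKM in q1. Of 10 GATA, DOF and COL genes 2 rose and 2 fell (median 0.21), with COL8 at 23.4 FPKM in q2 and 7.34 FPKM in q1.

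The remaining lists differed in their share of calls. Of 25 homeobox genes 3 rose and 2 fell (median 0.01, which turned negative on centring). Of 16 SBP genes 1 fell, and their median of -0.01 turned positive under rescaling. Of 9 WRKY genes 1 rose (median -0.14), and none of 6 MADS genes (median -0.03, positive under rescaling), 4 GRAS genes (median -0.18) or 7 TCP genes (median -0.15) was called. Of 14 leaf polarity genes 3 rose and 1 fell (median 0.06), and lbl1, of small RNA synthesis, had 69.7 FPKM in q2 and 125 FPKM in q1 (adjusted p 0.000899 in the authors' deposited table). Of 19 SR splicing factor genes 3 rose and 1 fell (median 0.02, which turned negative on centring), and srp30 had 51.0 FPKM in q2 and 24.9 FPKM in q1. Of 14 calcium-dependent kinase and CBL genes 2 rose and 2 fell (median 0.13). Of 8 anthocyanin genes 1 rose and 1 fell (median 0.28), of 5 wax genes 2 rose and 1 fell (median 0.23), and of 5 fatty acid desaturase genes 2 rose and 2 fell (median 0.33). Of 7 clock and light-signalling genes 4 fell and 2 rose (median -0.54), and the gigantea genes gigz1a and gigz1b fell with log2 ratios of -0.88 and -1.09. The labels give no hour of sampling.

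The calls were spread over the genome. On chromosomes 1 to 10 the share of tested genes called lay between 26.1% and 29.6%. Within 5 Mb of pDCT2 on chromosome 1, 22 of 77 tested genes other than pDCT2 were called, or 28.6%, against 28.1% on the rest of the chromosome. Changes of at least 2-fold were found for 4 of the 77, or 5.19%, against 7.11%. The median absolute log2 ratio was 0.379 within the window and 0.286 on the rest of the chromosome.

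Genes were also placed by their level in q1 higher up the leaf, at +4 in the mid-leaf relative to -1 at the transition zone, in 15923 genes tested in all 3 tables with at least 1 FPKM in q1 at either place. q1 is the group with the higher pDCT2 in each of these tables, and the tables were normalized separately. Of all these genes 16.9% were called higher and 10.4% lower at -4. They held 2685 of the 3062 genes called higher but only 1662 of the 2567 called lower. Of the 726 genes that were 2-fold to 4-fold higher at +4, 31.3% were called higher in q2 at -4 and 10.2% lower, with a median log2 ratio of 0.31. Of the 207 genes more than 4-fold higher at +4, 28.0% were called higher and 13.0% lower (median 0.37). Of the 832 genes more than 4-fold lower at +4, 23.6% were called higher and 20.1% lower (median -0.02). The highest share of lower calls thus fell in the genes most strongly reduced toward the mid-leaf, though higher calls outnumbered lower ones there too. The highest shares of higher calls fell in the genes that increase. The part of developmental position in the other results was not tested.

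**Figure D5:**
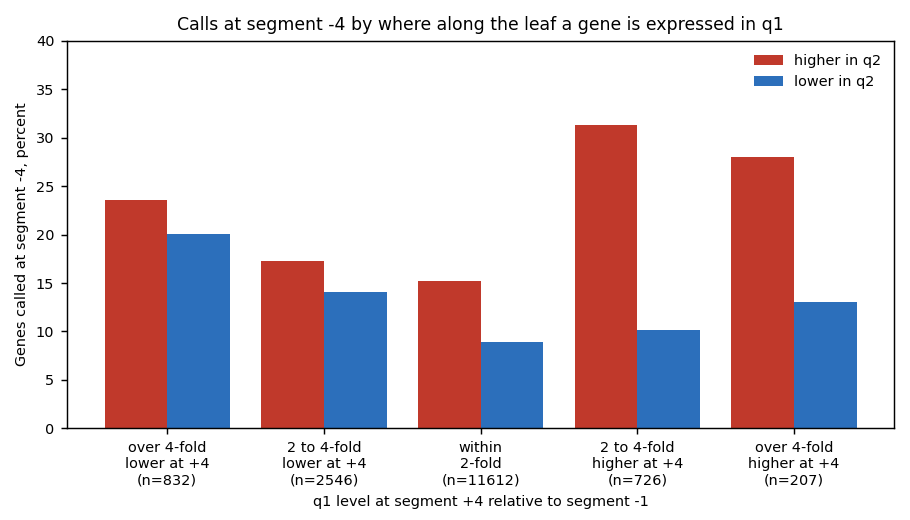
Bars give the percentage of genes called higher (red) or lower (blue) in q2 at segment -4, for 5 classes of genes by their q1 level at +4 relative to -1, with the number of genes under each pair. Higher calls reach 31.3% in the genes 2-fold to 4-fold higher at +4, and lower calls reach 20.1% in those more than 4-fold lower at +4.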

How the data were processed

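RNA sequencing libraries of leaf segments were processed with GSNAP and Cuffdiff, per the submitters' processing notes; the sources name neither versions nor a genome build. The authors deposited 1 FPKM value per group and gene, a Cuffdiff test statistic (a score), a p-value and a q-value, called adjusted p here. Genes with status OK were taken as tested. The log2 ratio was recomputed from the FPKM values deposited by the authors, with no ratio where a group was at 0, and its SE is the ratio divided by the authors' test statistic. The q-values deposited were recomputed by the Benjamini-Hochberg method, itself checked on simulated p-values, and differed by at most 5.2e-07. No test was made here, since the deposited table holds no value per library; the p-values rest on the authors' 3 libraries per group, each a pool of plants, and no source says whether the pools were grown apart.

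Gene names came from RefSeq's gene table for Zm-B73-REFERENCE-NAM-5.0, whose coordinates were not used; 18775 of 39634 identifiers matched and 2622 had a usable name. Of the called genes 678 had a name and 4951 had none, so the lists cover few of the calls. The lists were 45 named first, 14 added after names and some values had been seen, and 2 by chromosome. The comparison, members and lists were chosen with earlier results of these data known. Because a symbol can name another gene, 32 pairs of gene and list were removed with values in view. Of these 5 were called higher (sip1 from aquaporins, gar2 from auxin, gtr1 from glutathione S-transferases, gol1 from growth-regulating factors, HMGR from chromatin), 1 lower (sus1 from starch, kept under sucrose) and 26 were not called.

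Named genes were drawn from a set of pDCT2 and the 12 largest rises and 12 largest falls that reached 10 FPKM in either group. The set also held, in each list, the 4 called members with the largest absolute log2 ratio (the 2 most abundant where none was called). The 6 most abundant genes in each group and called genes listed at 0 in 1 group completed it. Not all of the set is given in the text. Left out are, among others, the falls of lox11, lox3, aprl2, BX14 and TIFY25. The abundant genes lhcb7, TUA2 and grp1, which were not called, are also left out. Further members, among them those of glycolysis, sucrose and nitrogen, the genes without a name and the single genes that moved against their list, were chosen after their values were seen. Python 3.11.15, pandas 2.3.3 and numpy 2.4.6 were used. Part of the meristem and ligule marker list is not reported here.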

Additional observations from a re-analysis of the deposited data

How the results depend on the processing

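The number of genes called depended on the threshold. Against 5629 genes, an adjusted p under 0.01 left 3708 (1613 lower), at least 2-fold left 1406 (1051 higher, 355 lower) and a mean of at least 10 FPKM left 3558 (1755 higher). A mean of at least 1 FPKM left 5562. Centring on the median of tested genes and rescaling to equal FPKM sums shifted log2 ratios by 0.02 and 0.04 and turned the sign of no called gene named here. A pseudocount of 1 FPKM gave pDCT2 a log2 ratio of -2.14, and made the ratios of genes near 1 FPKM smaller. Of the results rerun with it, 15 were marked as moved and 205 as the same. Among those moved were the log2 ratios of asn3 (4.87 to 4.41), dhn1 (4.55 to 3.44) and rca3 (3.16 to 2.50). Those of sus2 (3.65 to 1.98) and NAR (-3.04 to -2.44) also moved. The sizes of these changes thus depended on the setting. With a minimum of 10 FPKM in q1, chosen after seeing the data, the median of the genes over 4-fold higher at +4 was 0.29. Windows of 2 Mb and 10 Mb around pDCT2, also chosen after seeing the data, held 30.2% and 29.9% called genes. No paired analysis was possible because the deposited table holds no value per library, and leaving out each replicate was not run for the same reason.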
